A study of Homo sapiens with 3 samples.

Results

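The array held 58 probe sets for 49 histone genes, read here in HEK293T, a line from human embryonic kidney that carries SV40 large T antigen. They were taken by gene symbol from the 19070 probe sets that list a single gene, out of 22277 on the array: all symbols that begin with H1-, H2AC, H2BC, H3C, H4C, H2AZ, H2AX, H2AJ, H3-3 or MACROH2A, with no pseudogene among them. Of these, 42 sets stood for 41 replication-dependent genes and 16 sets for 8 variant genes. Every culture received dCas9VP160, a nuclease-dead Cas9 fused to the VP160 activation domain, by transfection with Fugene HD. The guide RNA differed: sgTetOmut, a mutated version of sgTetO without a target, served as control, sgTetO was directed to the TetO promoter, and sgIL1RN1~3 to the promoter of IL1RN. No histone gene was a target. Both the sgTetO and the sgTetOmut array are called controls below. With 1 array for each guide there is no replicate error and no test between guides. The difference between the sgTetO and sgTetOmut arrays is given beside each result to show how far the control arrays lay apart. These arrays also differed in interferon response genes, as given below, so their distance is not a measure of replicate error. Values are the deposited log2 values, differences are log2 differences between arrays, and all of them describe these 3 arrays.

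Histones are the small basic proteins around which DNA is wound. The core histones H2A, H2B, H3 and H4 form the nucleosome, and H1 binds the DNA between nucleosomes. The replication-dependent genes lie in clusters, are read in S phase, and give mRNAs that end in a stem-loop in place of a poly(A) tail. The variant genes lie alone, give polyadenylated mRNAs throughout the cell cycle and supply histones that replace the common ones at particular places, such as H2A.Z at promoters and H3.3 in transcribed genes. A few replication-dependent genes, H2BC21, H2BC12, H2AC6, H2BC5 and H1-2 among them, are also known to make polyadenylated mRNAs. Priming from poly(A) tails favours transcripts that have one. The labels do not describe the priming used here, so low values of replication-dependent sets cannot be read as low transcript amounts.

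The promoters of 4 members are shown because the results below turn on them: H2BC21 and H4C11 had the widest ranges among replication-dependent sets that passed the level described below, 2 sets of the variant H2AX gave the same order of arrays, and H2AZ1 was nearly level. They were chosen after their values were seen. Each sequence is the 250 bases before the start of the gene, from RefSeq (GRCh38.p14), 5′ to 3′ on the strand of the gene. Capitals mark 3 motifs, which do not overlap one another here, searched on both strands: the octamer ATTTGCAT, to which POU2F1 binds in H2B promoters, the CCAAT box (CCAAT) and the TATA box (TATAAA). The positions are chr1:149886683-149886932 on the minus strand for H2BC21, chr6:27823842-27824091 on the plus strand for H4C11, chr11:119095466-119095715 on the minus strand for H2AX, and chr4:99950276-99950525 on the minus strand for H2AZ1.
H2BC21: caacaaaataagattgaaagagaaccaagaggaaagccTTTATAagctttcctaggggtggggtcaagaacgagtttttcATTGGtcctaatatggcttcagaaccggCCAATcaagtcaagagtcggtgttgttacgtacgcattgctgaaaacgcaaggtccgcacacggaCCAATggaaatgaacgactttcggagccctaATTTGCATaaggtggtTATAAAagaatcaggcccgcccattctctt
H4C11: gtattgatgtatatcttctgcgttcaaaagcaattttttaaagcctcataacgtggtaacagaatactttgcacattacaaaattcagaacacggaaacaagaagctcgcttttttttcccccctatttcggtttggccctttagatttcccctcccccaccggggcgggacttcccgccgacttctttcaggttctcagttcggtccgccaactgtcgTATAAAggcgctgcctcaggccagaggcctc
H2AX: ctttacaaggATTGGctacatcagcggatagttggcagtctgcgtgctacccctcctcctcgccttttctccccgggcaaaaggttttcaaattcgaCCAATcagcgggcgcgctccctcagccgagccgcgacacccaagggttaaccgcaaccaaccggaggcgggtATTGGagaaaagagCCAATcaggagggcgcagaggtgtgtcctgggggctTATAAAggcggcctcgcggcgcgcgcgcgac
H2AZ1: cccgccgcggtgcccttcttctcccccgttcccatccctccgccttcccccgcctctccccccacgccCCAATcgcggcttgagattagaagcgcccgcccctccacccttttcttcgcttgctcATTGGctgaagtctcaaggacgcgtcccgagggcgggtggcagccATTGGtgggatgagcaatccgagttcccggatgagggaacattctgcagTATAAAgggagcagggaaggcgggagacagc
The H2BC21 window holds 1 octamer, 3 CCAAT boxes and 2 TATA boxes, the nearest TATA box 24 bases before the start. The H4C11 window holds 1 TATA box and neither of the other motifs. The H2AX window, although H2AX is classed here as a variant, holds 4 CCAAT boxes and 1 TATA box, as does that of H2AZ1 with 3 and 1. Of the 49 member genes, 46 had a promoter entry. A member gene was counted if any of its entries held the motif, while the shares of all entries count single entries. The octamer stood in 14 of 38 replication-dependent genes, 8 of 11 in the H2B family and 6 of 8 in the H2A family, and in 0 of 8 variant genes, against 1.63% of all 35116 promoter entries. A CCAAT box stood in 33 of 38 and 6 of 8, against 32.0% of all entries, and a TATA box in 25 of 38 and 3 of 8, against 10.7%. Of 6 motifs counted, these 3 were marked after the counts were seen. The others were TTTCGCGC, in 9 of 38 replication-dependent and 0 of 8 variant promoters against 0.439% of all entries, TTTGGCGC, in 0 of 46 against 0.550%, and GGGCGG, in 8 of 38 and 4 of 8 against 42.6%. A match describes these letters in this window and is not shown to be a binding site.

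Variant histones were detected by nearly all of their probe sets and replication-dependent histones by fewer. The scale for background was the set of 27 probe sets for Bacillus subtilis transcripts, which reached at most 3.29 with sgTetOmut and 3.40 with sgTetO or sgIL1RN1~3. Of the 16 variant sets, 15 lay above it on all 3 arrays. Of the 42 replication-dependent sets, 18 did so, 3 did on some arrays and 21 on none. Comparisons below use the 35 sets of 27 genes, 20 replication-dependent and 15 variant, whose mean over the 3 arrays exceeded 3.37, the highest mean of a Bacillus set. The same level was passed by 13896 of the named probe sets. The other 23 sets, which include 5 of 7 H3, 5 of 8 H4, 6 of 13 H2B, 4 of 6 H1 and 2 of 8 H2A sets and 1 of 4 H2AX sets, ran from 1.91 to 3.47. Among them H4C8 had the widest range, 2.54 with sgTetOmut, 2.53 with sgTetO and 3.16 with sgIL1RN1~3, below the background limit on each array, so no fold is given.

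Most histone sets differed little between the 3 arrays. All 3 values lay within 0.32 log2 units of each other in 26 of 35 sets (74.3%), against 68.5% of all named sets, and within 1.5-fold in 32 of 35 (91.4%), against 92.3%. The 3 sets that lay further apart were H2BC21, H4C11 and 1 set of MACROH2A1. At 2-fold, 0 of 35 histone sets were higher or lower in any comparison. The shares of all named sets past 2-fold, higher and lower, were 0.101% and 0.374% for sgIL1RN1~3 minus the mean of both controls, 0.216% and 0.223% for sgIL1RN1~3 minus sgTetO, 0.137% and 0.518% for sgIL1RN1~3 minus sgTetOmut, and 0.0144% and 0.403% for sgTetO minus sgTetOmut.

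The H2B genes encode the core histone that pairs with H2A. H2BC21, which lies in the cluster on chromosome 1, had a log2 value of 8.55 with sgTetOmut, 8.17 with sgTetO and 9.00 with sgIL1RN1~3. It was highest with sgIL1RN1~3 and lowest with sgTetO, the sgTetOmut value lying between them. The differences were 0.83 from sgTetO (1.77-fold) and 0.44 from sgTetOmut, beside -0.38 for sgTetO minus sgTetOmut. Thus nearly as large a distance separated the control arrays from each other as separated sgIL1RN1~3 from sgTetOmut. Among all named sets, 110 of 13896 (0.792%) were at least as far above sgTetO as H2BC21, and 720 (5.18%) at least as far above sgTetOmut.

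The other H2B sets did not follow H2BC21 on the sgIL1RN1~3 array by as much. H2BC12 had 9.71 with sgTetOmut, 9.66 with sgTetO and 9.59 with sgIL1RN1~3, a difference of -0.07 from sgTetO. H2BC12L, a gene close in sequence to H2BC12, had 5.86, 5.52 and 5.90 in the same order and was 0.38 higher with sgIL1RN1~3 than with sgTetO. Its sgTetO value stood below the other two, which were nearly alike. The 2 sets of H2BC5 gave 6.35, 6.32 and 6.38, and 6.66, 6.46 and 6.46. H2BC6 had 5.93, 5.73 and 5.73, and H2BC9 had 4.14, 4.20 and 4.13. Of the 7 H2B sets above background, H2BC12L was the next after H2BC21 in how far sgIL1RN1~3 stood above sgTetO. At least as far above sgTetO as H2BC12L were 1493 of 13896 named sets (10.7%). The sets of H2BC5, H2BC6, H2BC9 and H2BC12L have identifiers with _x, which marks probes that can match further transcripts, so near-identical H2B genes may share their signal.

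The replication-dependent H2A sets that list a single gene were near level, apart from H2AC4. Sets that list several H2A genes are given below. H2AC4 had 4.44 with sgTetOmut, 3.88 with sgTetO and 4.15 with sgIL1RN1~3, so the sgTetOmut array was the high one and sgTetO the low one, by 0.56. H2AC6 had 8.97, 8.88 and 9.10 in the same order, a difference of 0.22 for sgIL1RN1~3 from sgTetO. H2AC25, a gene of the small cluster on chromosome 1, had 6.22, 6.11 and 6.09. H2AC14 (4.68, 4.66 and 4.64) and H2AC8 (4.46, 4.55 and 4.51) varied by under 0.1. The H2AC14 set, 208583_x_at, has an identifier with _x, so near-identical H2A genes may share its signal. H2AC17 had 3.40, 3.40 and 3.34 and was above background with sgTetOmut alone.

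The H4 genes encode the least variable core histone, and 3 of their sets passed the level. H4C11 and H4C5, above background on all 3 arrays, were lower with sgTetO than with sgTetOmut. H4C11 had 5.26 with sgTetOmut, 4.63 with sgTetO and 4.74 with sgIL1RN1~3. Its sgTetOmut value stood alone above the others, by 0.63 and 0.51, and 136 of 13896 named sets (0.979%) were at least as far below sgTetOmut with sgTetO. The H4C11 set, 214463_x_at, has an identifier with _x, so near-identical H4 genes may share its signal. H4C5 had 5.60, 5.30 and 5.36, with the same order of arrays and less distance, 0.29 and 0.23. H4C9 had 3.37, 3.20 and 3.56. It passed the level only through its sgIL1RN1~3 value and was not above background with sgTetO, so its control difference is not read. The sgTetOmut array was also the one on which the interferon response list was high: the summed linear level of its 20 sets was 12377 there, against 3178 with sgTetO and 2520 with sgIL1RN1~3. Of the 19 sets that passed the level, 18 were at least 1.5-fold lower with sgTetO, against 1.16% of all named sets. Whether that state had a part in the H4 values was not tested.

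Of the H1 and H3 genes of this class, 2 sets each passed the level. H1-2, a linker histone, had 4.63 with sgTetOmut, 4.42 with sgTetO and 4.54 with sgIL1RN1~3, and H1-5 had 3.51, 3.64 and 3.79. They did not share an order of arrays. H3C2 (3.51, 3.51 and 3.64) and H3C8 (3.51, 3.47 and 3.51) were barely above background and varied by at most 0.13. The H3C8 set, 208496_x_at, has an identifier with _x, so near-identical H3 genes may share its signal.

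**Figure D1:**
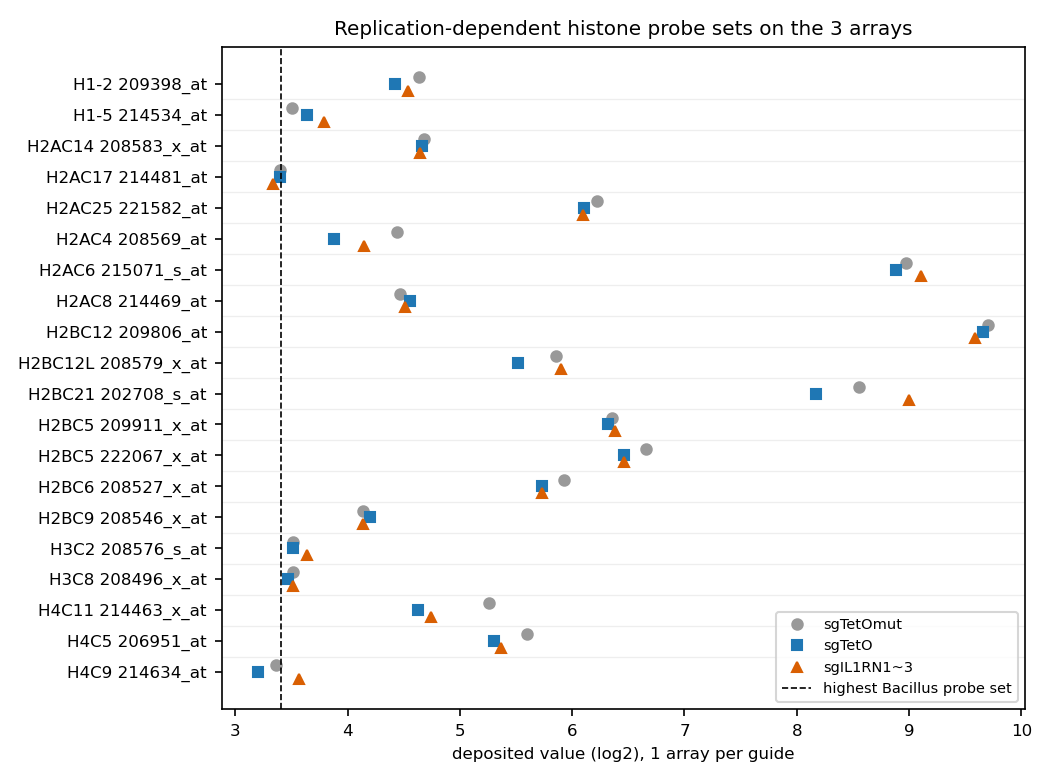
Deposited log2 value (x axis) of each of the 20 replication-dependent histone probe sets that passed the level, on the sgTetOmut (circle), sgTetO (square) and sgIL1RN1~3 (triangle) arrays, 1 array per guide; the dashed line is the highest Bacillus value, 3.40. H2BC21 shows the widest spread, 8.17 to 9.00, and H4C11 and H2AC4 stand higher with sgTetOmut than on the other arrays.

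Among the variants, H2AX differed between the control arrays by its brighter sets. H2AX is the H2A form phosphorylated next to DNA double-strand breaks, and its gene can give both stem-loop and polyadenylated mRNA. Set 213344_s_at had 10.29 with sgTetOmut, 10.54 with sgTetO and 10.61 with sgIL1RN1~3. Set 205436_s_at had 8.91, 9.23 and 9.38. In both sets sgTetOmut was the low array, by 0.26 and 0.33 against sgTetO and by 0.33 and 0.47 against sgIL1RN1~3. Those were less than 1.5-fold, and 402 of 13896 named sets (2.89%) were at least as far above sgTetOmut with sgTetO as set 205436_s_at. Set 212525_s_at, closer to background, had 3.55, 3.51 and 3.82 and did not separate the controls, and 212524_x_at was at background on all arrays.

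The macroH2A genes encode H2A forms with a large extra domain, associated with silent chromatin. MACROH2A1 was read by 3 sets that disagreed. Set 214500_at had 4.03 with sgTetOmut, 3.53 with sgTetO and 4.40 with sgIL1RN1~3, a difference of 0.87 from sgTetO, with 80 of 13896 named sets (0.576%) as far above it. The control arrays were themselves 0.50 apart on this set, and its sgTetO value was little above the highest Bacillus value, 3.40. Set 214501_s_at had 8.58, 8.40 and 8.72, the same order of arrays with a difference of 0.32 from sgTetO. Set 207168_s_at had 11.78, 11.65 and 11.65, the same to 2 decimals with sgIL1RN1~3 and sgTetO. MACROH2A1 was thus highest with sgIL1RN1~3 by 2 sets and with sgTetOmut by the third. MACROH2A2 had 8.93 on each of the 3 arrays, the same number to all deposited digits.

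The H2A.Z genes encode the variant found beside active and poised promoters. H2AZ1 had 11.91, 11.87 and 11.84 with sgTetOmut, sgTetO and sgIL1RN1~3 by set 200853_at, and 12.75, 12.74 and 12.62 by set 213911_s_at. It was lowest with sgIL1RN1~3 in both sets, by at most 0.13. H2AZ2 had 10.48, 10.51 and 10.38 by set 212205_at and 8.18, 8.15 and 8.23 by set 212206_s_at. Set 202487_s_at had 7.76, 7.81 and 8.10, higher with sgIL1RN1~3 by 0.29 and 0.34, so the 3 sets of H2AZ2 gave both signs.

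The remaining variants lay close together. H3-3A, 1 of the genes for histone H3.3, had 9.60 with sgTetOmut, 9.60 with sgTetO and 9.74 with sgIL1RN1~3. H2AJ had 4.38, 4.13 and 4.24, and the linker histone H1-10 had 6.40, 6.31 and 6.31. The H2AJ and H1-10 sets were highest with sgTetOmut, that of H3-3A with sgIL1RN1~3.

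**Figure D2:**
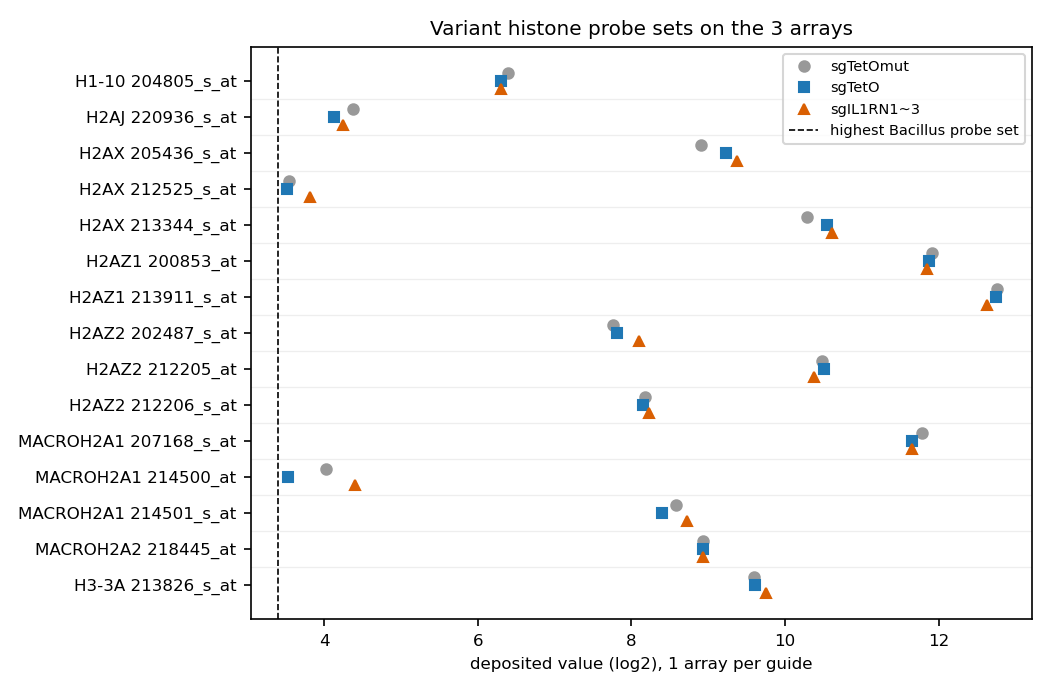
Deposited log2 value (x axis) of each of the 15 variant histone probe sets that passed the level, on the sgTetOmut (circle), sgTetO (square) and sgIL1RN1~3 (triangle) arrays, 1 array per guide; the dashed line is the highest Bacillus value, 3.40. Most triplets of points nearly coincide, while sgTetOmut is the low array for the brighter H2AX sets and sgTetO the low one for MACROH2A1 set 214500_at, at 3.53.

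**Figure D3:**
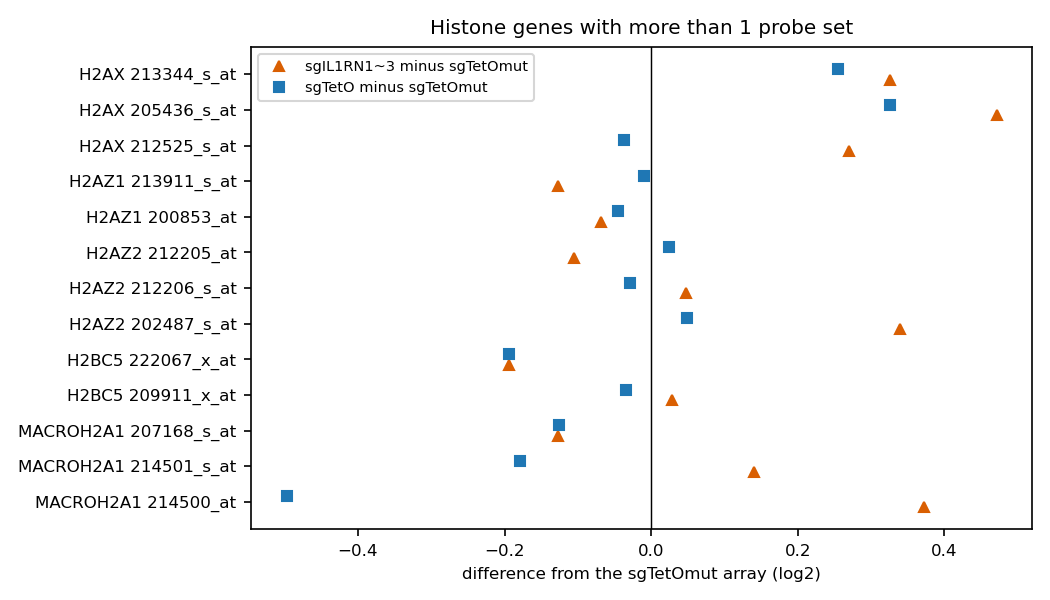
Log2 difference from the sgTetOmut array (x axis) of the sgIL1RN1~3 array (triangle) and the sgTetO array (square) for every probe set of the histone genes with more than 1 set, where the set passed the level. The H2AX sets lie to the right for sgIL1RN1~3 (0.27 to 0.47), while the sets of MACROH2A1 and H2AZ2 fall on both sides of 0.

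Replication-dependent and variant histones were then compared as classes, by the median difference over the sets of each. For sgIL1RN1~3 minus the mean of both controls the median was -0.00 for replication-dependent and 0.06 for variant sets, beside 0.02 for all named sets. For sgIL1RN1~3 minus sgTetO it was 0.06 and 0.08, beside 0.03, and for sgIL1RN1~3 minus sgTetOmut it was -0.02 and 0.05, beside 0.00. For sgTetO minus sgTetOmut it was -0.10 and -0.03, beside -0.02. The replication-dependent median was thus the lower in each comparison, by 0.07, 0.02, 0.07 and 0.07, and these comparisons share arrays. With 1 set per gene the sign turned in each comparison that involves sgIL1RN1~3, to 0.015, 0.060 and 0.062, and with H2AX counted as replication-dependent to 0.018, 0.031 and 0.034. With only _at sets it turned in the first 2 of these, to 0.011 and 0.072. Between the controls the sign was the same under every alternative run, with values from -0.15 to -0.01. Over all 58 sets without a minimum level, the medians of the replication-dependent and variant sets were -0.02 and 0.04 against the mean of both controls, and -0.06 and -0.03 between the controls.

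At 1.5-fold, 2 of 35 histone sets, H2BC21 and MACROH2A1 set 214500_at, were higher with sgIL1RN1~3 than the mean of both controls, where 2.25% of all named sets were, and 0 were lower, where 1.81% were. The same 2 were higher with sgIL1RN1~3 than with sgTetO (background 3.31%) and 0 lower (2.15%). Against sgTetOmut 0 were higher (2.04%) and 0 lower (2.01%). Between the controls, 0 were higher with sgTetO (0.389%) and 1, H4C11, was lower (1.16%). Each count is of at most 2 sets, and nothing particular to histones is read from the counts.

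At the lower limit of 0.32 log2 units, 5 of 35 sets were lower with sgTetO, against 5.53% of all named sets: H4C11, H2AC4, H2BC21, H2BC12L and MACROH2A1 set 214500_at. Within the H2A and H2B families both directions occurred, since H2AC8 and H2BC9 were higher with sgTetO by 0.09 and 0.07. The single set higher with sgTetO at this limit was H2AX set 205436_s_at, where 2.99% of all named sets were. For sgIL1RN1~3 minus the mean of both controls, 2 sets were higher (background 11.6%), again H2BC21 and MACROH2A1 set 214500_at, and 0 lower (7.92%). For sgIL1RN1~3 minus sgTetO, 4 sets were higher (background 14.5%), H2BC21, MACROH2A1 set 214500_at, H2BC12L and H4C9, and 0 lower (8.62%). H4C9 passed the level only through its sgIL1RN1~3 value and was not above background with sgTetO, so its place in this count is not read as a difference. For sgIL1RN1~3 minus sgTetOmut, 5 were higher (10.8%), namely the brighter H2AX sets, H2BC21, MACROH2A1 set 214500_at and H2AZ2 set 202487_s_at, and 1, H4C11, was lower (8.77%).

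In sign alone, 15 of the 20 replication-dependent sets were lower with sgTetO than with sgTetOmut, 3 were higher and 2 equal, and 9 of 15 variant sets were lower, against 7566 of 13896 named sets. The sgTetOmut array alone held the highest value in 14 of 35 histone sets (28.5% of all named sets), sgTetO in 3 (24.2%) and sgIL1RN1~3 in 15 (41.2%). The sgTetO array alone held the lowest value in 16 (37.7%), sgIL1RN1~3 in 9 (33.1%) and sgTetOmut in 6 (22.4%).

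**Figure D4:**
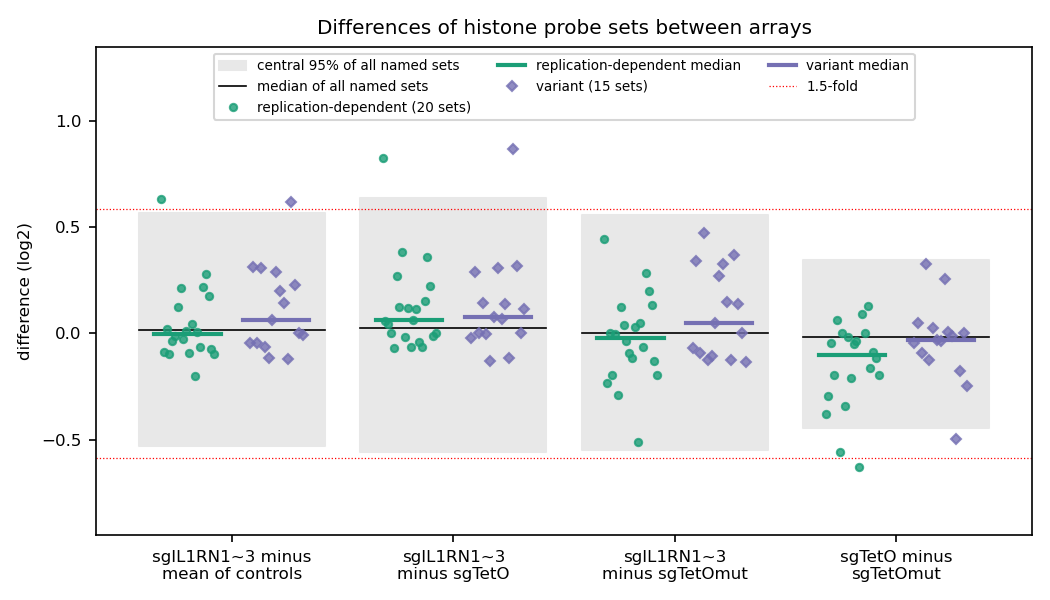
Log2 difference (y axis) of each histone probe set that passed the level in the 4 comparisons, replication-dependent sets as circles (20) and variant sets as diamonds (15) with their medians as coloured bars; the grey box spans the central 95% of all 13896 named sets, the black line is their median, and the dotted lines mark 1.5-fold. The class medians lie between -0.10 and 0.08, and H2BC21, MACROH2A1 and H4C11 are the points beyond a dotted line.

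A further 28 probe sets list several genes, at least 1 of them a histone gene, and are not counted above. Of these, 18 passed the level. Their median was 0.07 for sgIL1RN1~3 minus the mean of both controls and 0.00 for sgTetO minus sgTetOmut. Set 207156_at, which lists H2AC17 among other H2A genes, had 7.43 with sgTetOmut, 7.60 with sgTetO and 7.80 with sgIL1RN1~3. Set 214542_x_at, with the same genes, had 3.63, 3.74 and 3.74. Sets 214290_s_at, 218279_s_at and 218280_x_at list H2AC18 and H2AC19. They gave -0.31, -0.34 and -0.44 for sgTetO minus sgTetOmut, and -0.03, 0.41 and 0.21 for sgIL1RN1~3 minus sgTetO. The 1 set past 1.5-fold in any comparison, 208580_x_at, lists 14 H4 genes and had 4.88 with sgTetOmut, 4.66 with sgTetO and 4.26 with sgIL1RN1~3. It was 0.62 lower with sgIL1RN1~3 than with sgTetOmut, with sgTetOmut the high array as for H4C11. Its probes can match most H4 transcripts, so it is not independent of the H4 sets above.

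Genes that act on histones were taken as lists and are given by probe set at the same level. The list for histone gene transcription and mRNA processing had 12 of 18 genes named on the array, with 23 sets that passed. Its median was 0.03 for sgIL1RN1~3 minus the mean of both controls and -0.06 between the controls. At 1.5-fold, 1 set was higher (2.25% of all named sets) and 0 lower (1.81%) in the first comparison. Between the controls, 0 were higher (0.389%) and 1 was lower (1.16%). SLBP, which binds the stem-loop of histone mRNAs, had 9.90 with sgTetOmut, 9.77 with sgTetO and 9.63 with sgIL1RN1~3. NPAT, the activator of replication-dependent histone genes, had 8.74, 8.72 and 8.49 by set 209798_at. Its dimmer set 211584_s_at had 4.33, 3.67 and 3.51, the set lower by 1.5-fold between the controls. UPF1, a helicase in histone mRNA decay, had 4.15, 4.31 and 5.16 by set 208947_s_at and 6.37, 6.32 and 6.36 by set 211168_s_at. CASP8AP2, a protein of the histone locus body, had 7.91, 8.18 and 7.54, and was thus lowest with sgIL1RN1~3. Of the further genes with large control differences, SRRT, which links the mRNA cap to 3′ end processing, gave -0.51 and 0.36 for sgTetO minus sgTetOmut by its sets 214127_s_at and 222046_at.

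All 28 genes of the chaperone and assembly list were named, with 52 sets that passed. The list had a median of 0.07 for sgIL1RN1~3 minus the mean of both controls and -0.03 between the controls. At 1.5-fold, 1 set was higher (2.25% of all named sets) and 1 lower (1.81%) in the first comparison. Between the controls, 0 were higher (0.389%) and 0 lower (1.16%). SSRP1, a subunit of the FACT complex that moves H2A and H2B, had 8.72 with sgTetOmut, 8.66 with sgTetO and 9.52 with sgIL1RN1~3 by set 200956_s_at. Its other set had 9.73, 9.66 and 9.83. ASF1A, a chaperone of H3 and H4, had 10.33, 10.21 and 9.63 by set 203427_at and 9.48, 9.35 and 9.31 by its other set. DAXX, which places H3.3 with ATRX, had 7.66, 7.76 and 8.20 by set 201763_s_at and 5.55, 5.58 and 5.48 by set 216038_x_at. Each of these differences in 1 set was smaller in, or opposite to, that of the second set. Between the controls, UBN1, a partner of the H3.3 chaperone HIRA, was 0.42 higher with sgTetO by set 209088_s_at and 0.11 lower by its other set. ASF1B and ATRX set 208860_s_at were lower by 0.22 and 0.20.

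The list for H2A.Z exchange and H2AX phosphorylation had 14 of 16 genes named and 24 sets that passed. Its median was 0.07 for sgIL1RN1~3 minus the mean of both controls. In that comparison 0 sets were higher (2.25% of all named sets) and 1 lower (1.81%) by 1.5-fold. PRKDC, a kinase that phosphorylates H2AX, had 5.87 with sgTetOmut, 5.94 with sgTetO and 4.83 with sgIL1RN1~3 by set 215757_at, 7.29, 7.08 and 7.73 by set 210543_s_at, and 12.09, 12.04 and 12.13 by set 208694_at. The 3 sets gave opposite signs. YEATS4, a subunit of the H2A.Z exchange complexes, had 8.62, 8.66 and 8.11. Between the controls 0 sets of the list were higher (0.389% of all named sets) and 0 lower (1.16%) by 1.5-fold. Those furthest apart were KAT5 set 214258_x_at at -0.33, EP400 set 212376_s_at at 0.30 and BAZ1B set 213336_at at 0.29. Further sets of KAT5 gave 0.03 and -0.04, the brighter EP400 set 212375_at gave -0.17, and BAZ1B set 211313_s_at gave 0.16. BAZ1B, which phosphorylates a tyrosine of H2AX, had 12.43, 12.39 and 12.39 by set 208445_s_at.

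S phase genes are given because replication-dependent histone mRNA follows DNA synthesis. All 25 were named, and 40 of 41 sets passed. The median was 0.05 for sgIL1RN1~3 minus the mean of both controls and -0.02 between the controls. At 1.5-fold, 3 sets were higher (2.25% of all named sets) and 0 lower (1.81%) in the first comparison, and 0 were higher (0.389%) or lower (1.16%) between the controls. The 3 higher sets were MCM7, a subunit of the replicative helicase, at 0.96 and 0.62, and MCM4 set 212142_at at 1.05. Further MCM4 sets gave 0.37, 0.00 and 0.09. Between the controls RRM1, a subunit of ribonucleotide reductase, was lower with sgTetO by 0.39 in set 201476_s_at and by 0.08 in its other set. CDK2 set 211804_s_at was lower by 0.33, and MCM4 set 222037_at was 0.30 higher. The CDK2 set was close to background with sgTetO, at 3.48, and the brighter CDK2 set 204252_at gave -0.09. Further MCM4 sets gave -0.02, 0.08 and 0.01 between the controls. PCNA, the sliding clamp of the polymerases, had 11.50, 11.57 and 11.36.

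**Figure D5:**
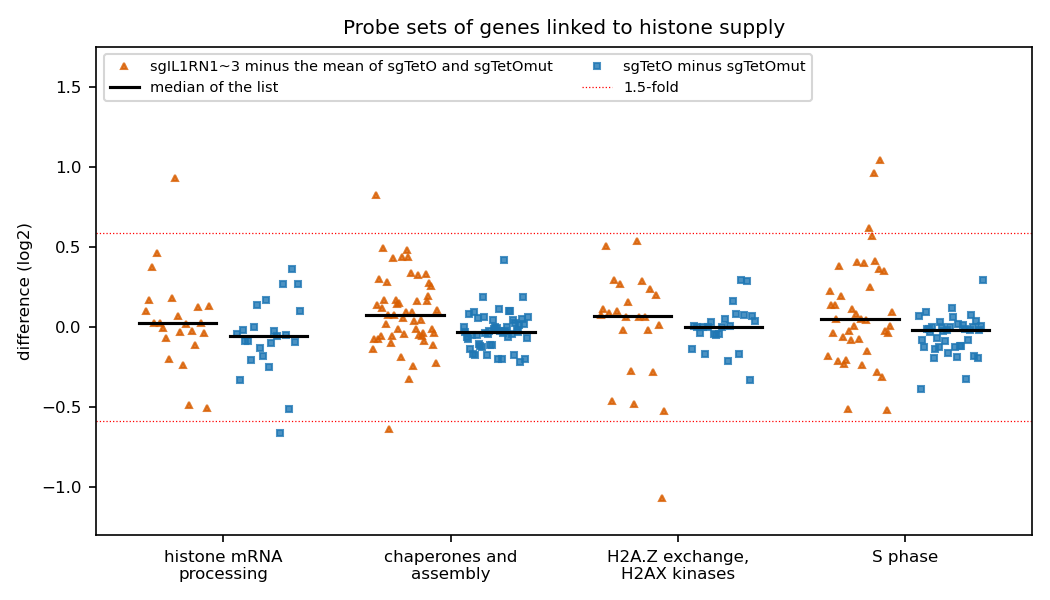
Log2 difference (y axis) of each probe set that passed the level in 4 gene lists, for sgIL1RN1~3 minus the mean of both controls (triangles) and sgTetO minus sgTetOmut (squares), with the median of each list as a black bar and 1.5-fold as dotted lines. The medians lie between -0.06 and 0.07, and the sets furthest out for sgIL1RN1~3 are MCM4 at 1.05 and PRKDC at -1.07.

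The chip's own controls and marker genes are given beside these values. On the sgIL1RN1~3 array the chip controls for the 5′ part of the ACTB and GAPDH transcripts were 0.95 and 0.84 higher than on sgTetO, while those for the 3′ part differed by 0.06 and -0.01. H2BC21 (0.83), MACROH2A1 set 214500_at (0.87), SSRP1 set 200956_s_at (0.85) and MCM7 set 210983_s_at (0.97) were apart from sgTetO by like amounts, and the part of this in their values was not tested. For sgTetO minus sgTetOmut, the 5′ controls of ACTB and GAPDH gave -0.13 and -0.18, and the 3′ controls 0.004 and 0.04. The part of that difference in the histone values was not tested either. Of 5 IL1RN sets, 212657_s_at was 7.01 with sgIL1RN1~3, while sgTetO gave 2.28 and sgTetOmut 2.23. Set 212659_s_at had 3.80, 2.88 and 3.29 in the same order, above background with sgIL1RN1~3 and, by a margin too small to show at 2 decimals, with sgTetOmut. The sets 216243_s_at, 216244_at and 216245_at were below background on all 3 arrays. All 8 lineage marker genes of the line, among them VIM and NEFL, passed the level, with summed linear levels of 3555 with sgTetOmut, 3608 with sgTetO and 4386 with sgIL1RN1~3. The brightest sets, of VIM and NEFL, carry most of this sum, and over the 11 sets the median for sgIL1RN1~3 minus the control mean was -0.03, with 6 sets lower. Of 7 blood and endothelial markers, PTPRC, CD3E, PECAM1 and VWF did not pass the level, and the summed levels were 110, 102 and 101. Of 7 fibroblast and muscle markers, 6 passed and DCN did not, with sums of 642, 658 and 692. Of 6 epithelial and liver markers, 3 passed, ALB, KRT5 and KRT14 did not, and the sums were 217, 194 and 256. In that list SFN, an epithelial 14-3-3 protein, was 0.83, 0.79 and 0.28 higher with sgIL1RN1~3 than with sgTetO by its 3 sets. The sums of both lists were highest with sgIL1RN1~3, and their part in the histone values was not tested. Of 6 testis markers, DDX4, DAZL, ACRV1 and ODF1 did not, with sums of 71.3, 78.5 and 78.3. In whole cultures, fewer cells of a type and less RNA per cell cannot be told apart.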

How the data were processed

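The authors deposited log2 values per probe set, 1 column per array. The submitters' processing notes name affy. Its version, background correction, normalization and summary are details not given in the sources used here, and neither is whether the arrays came from separate cultures. The log2 unit was inferred from the range of the values. Any scaling between arrays makes a difference relative to the bulk of genes, and the number of arrays limits the precision. Gene symbols came from GEO's platform annotation, which can be old: 19070 had 1 symbol, 1043 several and 2164 none listed. All 58 member symbols matched GRCh38.p14 gene table entries. Replication-dependent genes were the H2AC, H2BC, H3C and H4C genes and H1-1 to H1-6, and the others were variants. Sets whose mean exceeded the highest Bacillus mean were compared, and differences of at least 1.5-fold were counted. No p-value was computed. The members, gene lists and limits were chosen with earlier results of these data known, and the 0.1 log2 tolerance for medians was set after the values were seen. All members may be named, and from each list the 3 sets furthest apart in sgIL1RN1~3 minus the mean of both controls or in sgTetO minus sgTetOmut, with further sets and SLBP and PCNA added after their values were seen. Alternatives were rescaling by quantiles or by cyclic loess, run in limma 3.58.1 under R 4.3.3. Further alternatives, run in Python, were other levels and limits, other units, and 16 added to linear values. Python 3.11.15, numpy 2.4.6, pandas 2.3.3 and matplotlib 3.10.9 were used, and the counting was tested on simulated data.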

Additional observations from a re-analysis of the deposited data

How the results depend on the processing

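Medians moved by under 0.1 log2 units in 121 of 124 values, and counts stayed within 1.5 times in 72 of 96. The class medians themselves lay between -0.10 and 0.08, so a limit of 0.1 is wide for them and does not show stability. Replication-dependent minus variant changed sign, as given above, in each comparison that involves sgIL1RN1~3. For sgIL1RN1~3 minus sgTetOmut, the variant median was -0.10 with 1 probe set per gene in place of 0.05, and replication-dependent minus variant was 0.062 with 1 set per gene and 0.034 with H2AX as replication-dependent. The count of 2 histone sets above the mean of both controls became 1 under cyclic loess scaling, at the median level, with 1 set or the mean of sets per gene, with 16 added and with only _at sets, and 0 at 2-fold. The count of 2 above sgTetO became 1 under the same settings apart from cyclic loess, 0 at 2-fold and 4 at a limit of 0.32 log2 units. Against sgTetOmut, 1 set was higher without a minimum level and 5 at a limit of 0.32 log2 units, and 1 was lower at a limit of 0.32 log2 units and with several-symbol sets, an alternative chosen after seeing the data. The 1 set lower with sgTetO than with sgTetOmut became 0 at the median level, with 16 added, with only _at sets and at 2-fold, and 5 at a limit of 0.32 log2 units, where 1 was higher. MACROH2A1 set 214500_at fell short of 1.5-fold with 16 added, at 0.43 above sgTetO and 0.31 above the mean of both controls, and at 0.58 above the latter under cyclic loess, as did H4C11 at -0.41 with 16 added. Adding 16 to linear values narrows log2 differences by arithmetic, most of all at low values such as those of these sets. What moved the value under cyclic loess was not tested. Under both scalings and with 16 added, 416 differences of single sets kept their side of 1.5-fold and these 4 did not. No paired analysis was possible because each guide has 1 array and the result comes from no test.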

Other observations

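Of the histone genes read outside the symbol rule, H3-4 and H2AP were below background and CENPA was above it. H3-4, a testis histone H3, had 2.86 with sgTetOmut, 3.03 with sgTetO and 3.32 with sgIL1RN1~3, below the background limit on each array. H2AP, an X-linked member of the H2A family, had 2.08 on all 3 arrays. CENPA, the H3 variant of centromeres, was above background with 5.09, 5.03 and 5.23, 0.17 above the control mean with sgIL1RN1~3, beside -0.07 for sgTetO minus sgTetOmut.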
